A study of Mus musculus with 8 samples.

Results

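The cells described are the fibroblast-gated cells of back skin from mouse embryos at embryonic day 13 (E13). They were selected on measured RNA. A cell barcode was taken when 1000 or more genes were detected, no more than 10% of its UMIs (unique molecular identifiers, each counting 1 captured RNA molecule) were mitochondrial, and it held a UMI of at least 3 of the 7 mesenchymal genes Pdgfra, Prrx1, Twist1, Twist2, Lum, Dcn and Mfap4. It also had to hold fewer than 3 of the 7 epithelial genes Epcam, Cdh1, Cldn6, Cldn7, Esrp1, Grhl2 and Rab25, and 0 UMIs of the endothelial gene Cdh5, the leukocyte gene Ptprc, the glial gene Sox10, the muscle gene Myog and the mural gene Rgs5. The gate took 2124 of the 3991 E13 barcodes, in a series of 8339 barcodes. Of these, 541 cells came from the E13 WT library, 691 from E13 HET, 645 from E13 KO 1 and 247 from E13 KO 2, so 1232 were control cells and 892 KO cells.

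The question was what dermal fibroblasts express when the epithelium above them lacks p63. The genotypes are WT, and mice with 1 mutant allele (HET) or no normal allele (KO) at a GFP knock-in of the deltaN form of p63, the transcription factor encoded by Trp63. The labels name no tissue-specific driver, so the allele is not described as limited to the epithelium. Each library is a single-cell suspension of back skin made with collagenase and trypsin and a 10x 3' kit, and the labels do not give the number of embryos behind a library. WT and HET libraries formed the control (n = 2) and were compared with the KO libraries (n = 2). Libraries of the same design at embryonic day 15 (E15), gated in the same way (2474 cells), served for a second reading of the genes found at E13. Whether the libraries of an arm are separate embryos is not stated, so p-values measure only the spread between these libraries, which may be technical.

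Dermal fibroblasts lie under the epidermis and exchange signals with it. Epidermal Wnt and Hedgehog ligands act on the dermis, where Lef1, Axin2, Gli1 and Ptch1 are common readouts, and the dermis returns growth factors such as FGF7 to the epithelium. In back skin the upper dermis and the deeper layers that give rise to fascia and fat differ in gene expression from early stages. p63 itself is made by stratified epithelia and not by dermal fibroblasts.

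The gate genes are described without a test, because they chose the cells. Twist2 was detected in 95.8 to 98.8% of gated cells per library, Lum in 96.7 to 98.8% and Dcn in 91.0 to 96.7%. Pdgfra was detected in 63.1 to 73.7%. The epithelial gate gene Epcam had a UMI in 16.3, 14.3, 22.9 and 44.1% of gated WT, HET, KO 1 and KO 2 cells. In the same order Cldn7 had one in 3.33, 1.45, 14.0 and 14.6%, and Grhl2 in 1.66, 0.868, 0.465 and 0%. Lum, which encodes the matrix proteoglycan lumican, stood at 944 and 908 CPM (UMIs per 1000000 UMIs of the gated cells of that library) in WT and HET and at 658 and 668 CPM in KO 1 and KO 2. All 7 mesenchymal genes were found in 1049 cells, 54 cells sat just inside the limit with 3 of them, and 37 barcodes sat just outside with 2. The 5 marker genes of the label, Pdgfra, Prrx1, Twist2, Lum and Dcn, were thus found in every library. A UMI of Twist2, Lum or Dcn was not particular to the gate. In barcodes with 3 or more epithelial gate genes these had one in 77.0 to 88.7, 63.1 to 85.9 and 73.4 to 97.5% per library. Pdgfra had one there in 9.84 to 52.1%. The Twist2 level was 57.3 to 322 CPM there and 646 to 823 CPM in gated cells. Osr1 or Agtr2, listed here as genes of the deep dermis, had a UMI in 87.8 to 90.3% of cells.

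The targeted gene was read in barcodes with at least 3 epithelial gate genes. In these Trp63 stood at 146 and 87.9 CPM in WT and HET and at 4.10 and 1.10 CPM in KO 1 and KO 2, in the order the labels give, although a 3' tag may lie outside the altered part of the gene. In gated cells Trp63 had 78, 34, 2 and 3 UMIs in the order WT, HET, KO 1 and KO 2. The median gated cell held 16450, 14942, 16388 and 16305 UMIs, again in that order. E13 KO 2 stood apart. Its gated share was 34.7% of the barcodes that passed quality, against 59.8, 57.9 and 59.4% in WT, HET and KO 1. The share was 47.1% ± 17.5 (SD, n = 2) in KO and 58.9% ± 1.39 in control (two-sided exact permutation p = 0.667, where 2 against 2 cannot go below 0.333). It is not a measure of fibroblast abundance, since 257 barcodes of KO 2 with 3 or more mesenchymal genes were left out for a UMI of the 5 excluded genes, 200 of them with Myog, and in 116 the only such UMI was 1 of Myog. With up to 2 such UMIs allowed, a choice made after seeing the data, the share was 72.6, 76.8, 79.4 and 63.7% in WT, HET, KO 1 and KO 2. In that order the excluded genes took 156 of 904, 292 of 1194, 293 of 1085 and 257 of 711 barcodes that passed quality. Barcodes with 3 or more mesenchymal and 3 or more epithelial genes, also left out, numbered 119, 135, 100 and 182. At most 6 barcodes were shared by any 2 libraries.

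Fibroblasts beside the KO epithelium had higher RNA of interferon-stimulated genes, among them Isg15, Bst2 and Ifi27, and of the secreted factors Fgf7, Ptn and C1qtnf3. They had lower RNA of the Wnt effector Lef1, of the upper dermis genes Crabp1 and Wif1, of the transcription factor Runx3, and of Calb1 and the anchoring fibril collagen Col7a1. In all, 56 genes were higher and 68 lower among 13280 tested (edgeR quasi-likelihood test, Benjamini-Hochberg adjusted p under 0.05), which is 0.422% and 0.512% of tested genes, or 0.934% in either direction. All 124 had both KO libraries on one side of both control libraries, as did 45.4% of all tested genes. An unadjusted p under 0.05 was found for 1753 of the 13280 genes (13.2%), against which the counts at that level given for gene lists are to be read. Of the 56 higher genes 9, and of the 68 lower genes 14, were at 5 or more times their gated level in epithelial barcodes of the same arm, and 6 and 8 were markers of another cell type. The counts of higher and lower genes depended strongly on single libraries. They were 27 and 23 without WT, 15 and 20 without HET, 13 and 5 without KO 1, and 23 and 22 without KO 2, and 19 and 25 with up to 2 UMIs of the excluded genes allowed. Of the 124 genes, 16 passed without each E13 library in turn: Gm10093, Calb1, Bst2, Ifi27, Krt14, Epha3, Kremen2, Krt18, Ifitm3, Lgals9, Lgals3bp, Isg15, Krt8, Bfsp2, Gnai1 and Fgf7.

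**Figure D1:**
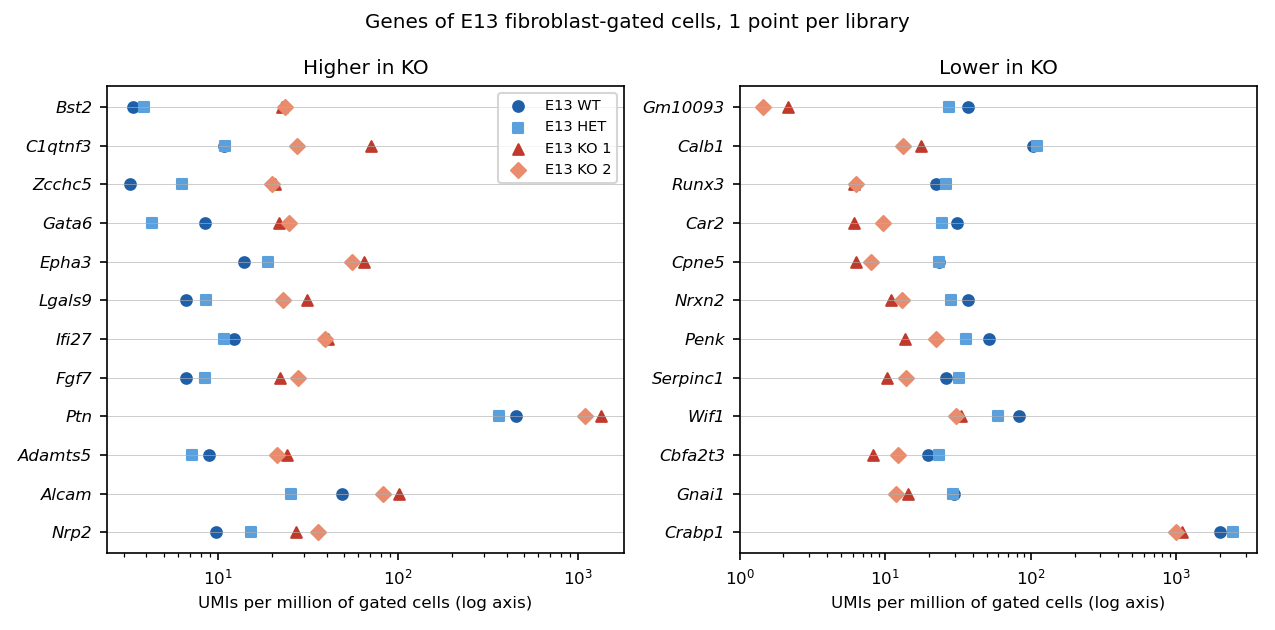
Level in each E13 library (CPM, log axis) of the 12 genes with the highest and the 12 with the lowest fold change chosen by the naming rule, 1 point per library. The rule took only genes whose KO libraries (triangles and diamonds) lie on one side of both control libraries (circles and squares), and Ptn and Crabp1 are the most abundant of the higher and the lower genes.

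Interferon-stimulated genes are switched on when cells sense interferon, and their products restrict viruses or present antigen. Isg15 (ENSMUSG00000035692, GRCm38 chromosome 4, 156199424 to 156200818, minus strand), a ubiquitin-like modifier, had 3 and 2 UMIs in WT and HET and 156 and 57 UMIs in KO 1 and KO 2. These were 0.287 and 0.165 CPM against 13.5 and 13.8 CPM, so the arms were far apart, and the fold rests on 5 control molecules. The log2 fold change was 5.86 ± 0.61 (SE from the test, n = 2 against 2, edgeR adjusted p = 0.00233). Bst2 (ENSMUSG00000046718, chromosome 8, 71534255 to 71537456, minus strand), which encodes tetherin, stood at 3.35 and 3.89 CPM in control and at 22.6 and 23.7 CPM in KO. Its log2 fold change was 2.67 ± 0.17 (edgeR adjusted p = 0.000116). Ifi27 (chromosome 12, 103434211 to 103440239), a mitochondrial interferon-inducible gene, stood at 12.3 and 10.8 CPM in control and 40.6 and 39.4 CPM in KO, a log2 fold change of 1.81 ± 0.12 (edgeR adjusted p = 0.000116). Ifitm3, a membrane protein that blocks viral entry, stood at 78.5 and 69.7 CPM in control and at 155 and 164 CPM in KO, a log2 fold change of 1.12 ± 0.10 (edgeR adjusted p = 0.000847). In each of these 4 genes the libraries of an arm were close together and the arms did not overlap. In the small share of gated cells with no UMI of Osr1 or Agtr2, Ifitm3 turned direction (log2 -0.76, edgeR adjusted p = 0.119), and Bst2 (1.71, 0.157) and Isg15 (3.58, 0.277) no longer passed.

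The promoters of these genes are shown because members of the group moved together. The sequences are the 250 bases before the annotated start, from RefSeq on GRCm38.p6, 5′ to 3′ on the gene's strand. Capitals mark matches to GAAANNGAA, a core of the interferon-stimulated response element, searched on both strands with overlapping matches kept. The motif and the genes searched were chosen after the values were seen. Isg15 is at chr4:156200819-156201068, Bst2 at chr8:71537473-71537722, Lgals9 at chr11:78984925-78985174 and Ifitm3 at chr7:141010745-141010994, all on the minus strand.
Isg15: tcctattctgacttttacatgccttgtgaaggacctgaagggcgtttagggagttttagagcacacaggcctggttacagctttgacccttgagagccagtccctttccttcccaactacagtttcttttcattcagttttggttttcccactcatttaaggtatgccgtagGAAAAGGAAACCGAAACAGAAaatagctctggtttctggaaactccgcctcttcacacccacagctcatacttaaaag
Bst2: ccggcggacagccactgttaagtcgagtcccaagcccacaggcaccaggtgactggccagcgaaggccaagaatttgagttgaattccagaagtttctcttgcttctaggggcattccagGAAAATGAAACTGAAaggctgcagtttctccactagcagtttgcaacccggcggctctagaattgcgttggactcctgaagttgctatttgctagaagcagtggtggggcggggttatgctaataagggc
Lgals9: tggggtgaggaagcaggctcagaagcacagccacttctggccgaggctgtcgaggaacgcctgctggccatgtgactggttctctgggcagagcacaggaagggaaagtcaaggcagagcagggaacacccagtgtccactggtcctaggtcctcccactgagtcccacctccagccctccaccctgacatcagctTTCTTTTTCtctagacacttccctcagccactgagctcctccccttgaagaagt
Ifitm3: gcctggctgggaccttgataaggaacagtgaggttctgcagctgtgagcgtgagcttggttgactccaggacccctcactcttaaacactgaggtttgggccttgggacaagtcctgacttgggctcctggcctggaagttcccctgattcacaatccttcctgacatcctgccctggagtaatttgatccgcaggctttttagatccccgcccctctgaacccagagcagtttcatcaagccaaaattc
Isg15 held 3 overlapping matches, 78, 72 and 66 bases before the start, and Bst2 held 2, at 130 and 124 bases. Lgals9 held 1 on the opposite strand, 54 bases before the start, and Ifitm3 held none in this window. Of all 32851 promoters of this length 7.13% held a match, and of the 27025 genes they belong to 8.18% had a promoter with one. Among 15 interferon and antigen presentation genes looked up, 11 had a promoter in the table and 4 of these held a match, the fourth being B2m. A match is a description of the letters only.

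Of the 15 tested genes of the interferon and antigen presentation list 4 rose and 0 fell, and 14 had a positive log2 fold change. The list's median was 0.74, against 0 over all 13280 tested genes. Those that did not pass included Irf7, a transcription factor of the interferon response, at 2.29 (edgeR adjusted p = 0.379), the MHC class I light chain gene B2m at 0.48 (0.107) and the proteasome gene Psmb9 at 0.05 (0.99). A further 4 genes known as interferon-inducible or often induced with them are given as values only, since they were taken from the called genes, Ifi27l2a and Rtp4 after their values were seen. Lgals9, which encodes the lectin galectin-9, stood at 6.61 and 8.60 CPM in control and 31.3 and 22.9 CPM in KO (log2 1.87, edgeR adjusted p = 0.00233). Lgals3bp stood at 2.01 and 1.57 against 8.48 and 8.21 CPM (log2 2.23, edgeR adjusted p = 0.00233). Ifi27l2a stood at 1.05 and 1.41 against 13.6 and 19.1 CPM (log2 3.68, edgeR adjusted p = 0.0121), and Rtp4 at 0.958 and 0.993 against 5.37 and 3.86 CPM (log2 2.28, edgeR adjusted p = 0.0424). Ifi27l2a and Rtp4 lost the call without any of the 4 libraries, with edgeR adjusted p of 0.0594 to 0.0855 and 0.0866 to 0.25.

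Higher levels of these genes were also seen outside the gate, which was read as values without a test. In epithelial barcodes Bst2 stood at 1.58 and 5.51 CPM in WT and HET and at 38.1 and 35.1 CPM in KO 1 and KO 2. Isg15 stood there at 2.71 and 1.38 CPM in control, at 31.1 CPM in KO 1 and at 4.39 CPM (8 UMIs) in KO 2. The KO libraries thus differed widely for Isg15 in these barcodes. The other barcodes, set aside for a UMI of the excluded genes or for haemoglobin, numbered 233, 404, 372 and 391 in WT, HET, KO 1 and KO 2. Of these, 156, 292, 293 and 257 had 3 or more mesenchymal and fewer than 3 epithelial genes, so they are largely fibroblast-like. They also held epithelial RNA, with Krt14 at 598 and 322 CPM in control and Krt18 at 318 and 361 CPM in KO. In these other barcodes Isg15 stood at 5.19 and 1.36 CPM in control and at 21.8 and 20.1 CPM in KO. Ifitm3 differed from these: in epithelial barcodes it stood at 729 and 595 CPM in control and at 77.9 and 94.99 CPM in KO, and in the other barcodes at 302 and 238 against 151 and 145 CPM, the opposite order to that in the gated cells. The summed level of the macrophage markers was 28.5 and 68.7 CPM in control and 70.3 and 34.3 CPM in KO, so the arms overlapped, and their defining gene Ptprc was at 0 by the gate.

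**Figure D2:**
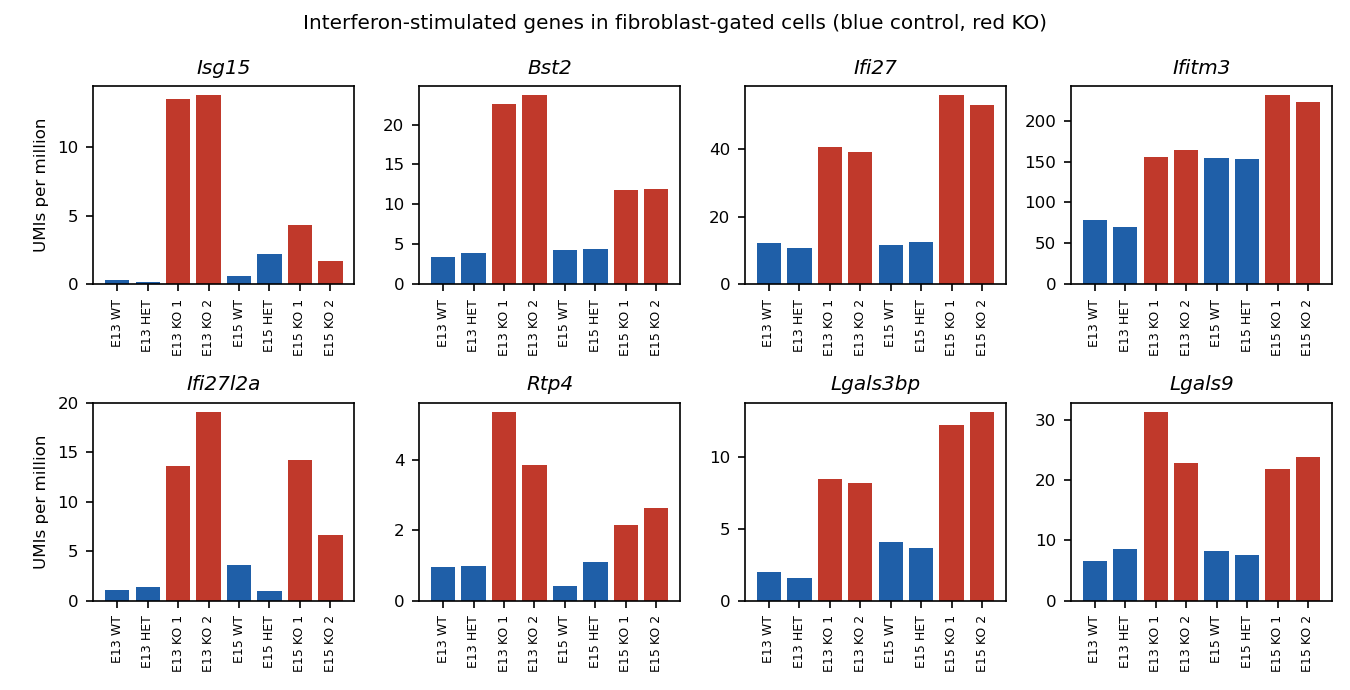
CPM in fibroblast-gated cells of each of the 8 libraries (bars, linear axes from 0, blue control and red KO) for 8 interferon-stimulated genes. The 8 genes were chosen from those called higher at E13, so both KO bars stand above both control bars at E13 in every gene. Members of the interferon list that did not pass are not shown. At E15 Isg15 is at 4.31 and 1.71 in the KO libraries and 0.607 and 2.18 in the control libraries.

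Among growth factors, Fgf7 (ENSMUSG00000027208, chromosome 2, 126034658 to 126091185, plus strand), the keratinocyte growth factor made by mesenchyme for the epithelial receptor FGFR2b, stood at 6.61 and 8.44 CPM in WT and HET and at 22.1 and 27.8 CPM in KO 1 and KO 2. The KO libraries were both above the control libraries, with a log2 fold change of 1.71 ± 0.20 (edgeR adjusted p = 0.00424). Fgf10, which signals through the same receptor, had a log2 fold change of 0.25 (edgeR adjusted p = 0.79). Fgfr2 stood at 23.0 and 19.7 CPM in control and at 12.4 and 11.8 CPM in KO (log2 -0.80, edgeR adjusted p = 0.0491), and it was at 5 or more times its gated level in epithelial barcodes. Of the 10 FGF ligands and receptors tested, 1 rose and 1 fell, with a median of 0.26. Fgf7 lost the call with up to 2 UMIs of the excluded genes allowed (edgeR adjusted p = 0.0506, range over alternatives 1.39e-15 to 0.0506), and Fgfr2 without any 1 of the 4 libraries (edgeR adjusted p = 0.137 to 0.234).

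Ptn, which encodes the heparin-binding growth factor pleiotrophin, was the most abundant of the higher genes named. It stood at 452 and 363 CPM in WT and HET and at 1332 and 1084 CPM in KO 1 and KO 2, a log2 fold change of 1.58 ± 0.27 (edgeR adjusted p = 0.0359). C1qtnf3, a secreted C1q and TNF related protein, stood at 10.7 and 10.9 CPM in control and at 70.7 and 27.5 CPM in KO, so the KO libraries differed among themselves by more than the control libraries (log2 2.25, edgeR adjusted p = 0.0329). Tgfb3, a TGF-beta ligand, was at 12.2 and 14.4 CPM in control and 29.8 and 22.7 CPM in KO (log2 1.02, edgeR adjusted p = 0.0491). These 3 were called on all libraries together. Without 1 library, whichever it was, Ptn had an edgeR adjusted p of 0.0838 to 0.222 and Tgfb3 of 0.071 to 0.271, and C1qtnf3 lost the call without WT (0.159), HET (0.179) or KO 1 (0.201). Of the 19 BMP and TGF-beta ligands and inhibitors tested, Tgfb3 rose, none fell, and 7 had an unadjusted p under 0.05. DESeq2 called 3 of them higher, namely Bmp3, Ltbp1 and Tgfb3.

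Several surface and matrix genes were higher as well. Epha3, a receptor for ephrin ligands that guides cell contacts, stood at 14.0 and 19.03 CPM in WT and HET and at 64.2 and 55.3 CPM in KO 1 and KO 2. Its log2 fold change was 1.87 ± 0.16 (edgeR adjusted p = 0.000762), and it passed in 15 of 15 alternatives. Adamts5, a protease that cleaves aggrecan and versican, stood at 8.91 and 7.20 against 24.2 and 21.2 CPM (log2 1.53, edgeR adjusted p = 0.00389). Alcam, a cell adhesion molecule, stood at 48.8 and 25.2 CPM in control and 102 and 82.8 CPM in KO (log2 1.34, edgeR adjusted p = 0.0402). Nrp2, a co-receptor for semaphorins and VEGF, stood at 9.77 and 15.1 against 26.9 and 36.0 CPM (log2 1.30, edgeR adjusted p = 0.0462). Gata6, a zinc finger transcription factor, stood at 8.43 and 4.30 against 21.8 and 24.9 CPM (log2 1.89, edgeR adjusted p = 0.0262), and Zcchc5 at 3.26 and 6.29 against 20.6 and 19.8 CPM (log2 2.07, edgeR adjusted p = 0.0262). In each of them the arms did not overlap. Epha3 kept its call without each library. Adamts5 turned direction in cells with no UMI of Osr1 or Agtr2 (log2 -1.18, edgeR adjusted p = 0.633). It lost its call without HET (edgeR adjusted p = 0.054) or KO 1 (0.0882), Alcam and Gata6 without HET (0.0864 and 0.123), KO 1 (0.219 and 0.131) or KO 2 (0.0875 and 0.0923), and Nrp2 and Zcchc5 without WT (0.19 and 0.112), KO 1 (0.126 and 0.178) or KO 2 (0.168 and 0.0773).

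Wnt signalling acts through beta-catenin and the LEF and TCF factors, and Lef1 is both a mediator and a target. Lef1 (ENSMUSG00000027985, chromosome 3, 131110471 to 131224356, plus strand) stood at 68.1 and 69.6 CPM in WT and HET and at 36.0 and 35.3 CPM in KO 1 and KO 2. The libraries of an arm nearly coincided and the arms did not overlap, and the log2 fold change was -0.94 ± 0.10 (edgeR adjusted p = 0.00264). Lef1 was higher in epithelial barcodes, at 220.8 and 196.8 CPM in control and at 125.8 and 90.04 CPM in KO. In the other barcodes, many of them fibroblast-like, it stood at 89.97 and 83.97 against 45.2 and 68.73 CPM. The part of epithelial RNA in the Lef1 level of gated cells was not tested. Wif1, a secreted inhibitor that binds Wnt ligands, stood at 83.1 and 59.98 CPM in control and at 33.0 and 30.4 CPM in KO (log2 -1.15 ± 0.23, edgeR adjusted p = 0.0491). Of the 13 tested genes of the Wnt response list, Lef1 and Wif1 fell and none rose, and 10 had a negative log2 fold change, with a median of -0.40. Axin2, a target used as a general readout, was at -0.11 (edgeR adjusted p = 0.81), Sp5 at -0.52 (0.0943) and Nkd1 at -0.40 (0.12). Dkk2, a secreted Wnt modulator, had 83.5 and 59.9 CPM in control and 144 and 160 CPM in KO. It did not pass in edgeR (log2 1.09, adjusted p = 0.0687), and DESeq2 called it. Lef1 lost its call without KO 1 (edgeR adjusted p = 0.0558). Wif1 lost it without WT (0.236), HET (0.0854), KO 1 (0.219) or KO 2 (0.221).

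Of the 22 Wnt ligands, receptors and modulators tested, none passed in edgeR, and 8 had an unadjusted p under 0.05. DESeq2 called 1 of them, the Wnt amplifier Rspo1, lower. Ligand genes went in both directions, with Wnt2 at 1.11 (edgeR adjusted p = 0.19) and Wnt4 at -0.83 (0.174), and Wls, which carries Wnt proteins to the surface, was at 0.00. None of the 4 Hedgehog response genes passed in edgeR or in DESeq2, and 2 had an unadjusted p under 0.05. Gli1, a direct Hedgehog target, had 20, 36, 6 and 4 UMIs in WT, HET, KO 1 and KO 2, a log2 fold change of -1.91 ± 0.41 (edgeR adjusted p = 0.0732), and Ptch1 was at -0.35 (0.63). At these counts a moderate difference was not detectable.

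Crabp1, a retinoic acid binding protein abundant in the upper dermis, was the most abundant of the lower genes named, with 1990 and 2471 CPM in WT and HET and 1099 and 989 CPM in KO 1 and KO 2. Its log2 fold change was -1.08 ± 0.19 (edgeR adjusted p = 0.0359). Without WT, HET, KO 1 or KO 2 the edgeR adjusted p was 0.0555, 0.206, 0.178 and 0.179. Of the 13 genes of the upper dermis list Crabp1 and Wif1 fell and none rose in edgeR, while DESeq2 also called Dkk2 higher. Dpp4, a surface marker of that layer, was at 0.67 (edgeR adjusted p = 0.71). Of the 16 genes of the deep dermis, fascia and fat list none passed in edgeR or in DESeq2, 5 had an unadjusted p under 0.05, and 13 had a positive value, with a median of 0.87. In that list the fascia gene Osr1 was at -0.05 (edgeR adjusted p = 0.9) and the angiotensin receptor gene Agtr2 at 0.31 (0.54). None of the 13 dermal condensate genes, which mark the dermal cells under a hair placode, passed in edgeR. There 3 had an unadjusted p under 0.05, and DESeq2 called Bmp3. Sox2, the defining gene of the condensate, had no UMI in any thinned cell of the 4 libraries. Before thinning it was at 0.248 CPM in HET and 0 in the other libraries, so no difference was detectable.

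Other genes that fell are known from several settings. Runx3, a Runt domain transcription factor, stood at 22.5 and 26.3 CPM in control and at 6.15 and 6.28 CPM in KO (log2 -1.97 ± 0.23, edgeR adjusted p = 0.00348). Calb1 (ENSMUSG00000028222, chromosome 4, 15881264 to 15908064, plus strand), which encodes the calcium buffer calbindin, stood at 103 and 110 CPM in control and at 17.6 and 13.3 CPM in KO. Its log2 fold change was -2.73 ± 0.16 (edgeR adjusted p = 8.54e-05), and it passed in 15 of 15 alternatives. Cpne5, a calcium-dependent membrane-binding copine, stood at 23.3 and 23.2 against 6.32 and 7.97 CPM (log2 -1.75, edgeR adjusted p = 0.00145). Gnai1, an inhibitory G protein subunit, stood at 29.6 and 29.1 against 14.4 and 11.8 CPM (log2 -1.12, edgeR adjusted p = 0.0041). In all of these the control libraries nearly coincided and both KO libraries were lower. Runx3 and Cpne5 lost the call only without KO 1 among the left-out libraries (edgeR adjusted p = 0.104 and 0.0558). Penk, the enkephalin precursor gene, at 51.6 and 36.0 against 13.6 and 22.2 CPM, and Serpinc1, the antithrombin gene, at 26.1 and 32.0 against 10.2 and 14.0 CPM, passed on all libraries (edgeR adjusted p = 0.0491 for both). They lost the call without any 1 library (edgeR adjusted p = 0.0618 to 0.271 and 0.0971 to 0.28). Nrxn2, a neurexin adhesion gene, at 37.3 and 28.2 against 11.0 and 13.0 CPM (log2 -1.46, edgeR adjusted p = 0.00855), lost it without KO 1 (0.149). The corepressor gene Cbfa2t3, at 19.8 and 23.2 against 8.22 and 12.3 CPM (log2 -1.14, edgeR adjusted p = 0.0491), lost it without any 1 library (0.0618 to 0.288).

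Few genes of the basement membrane and fibrillar matrix lists passed in edgeR, and those that did were lower. Col7a1, the collagen of the anchoring fibrils that tie the dermis to the epidermal basement membrane, stood at 18.3 and 20.1 CPM in control and at 6.84 and 7.73 CPM in KO (log2 -1.42 ± 0.15, edgeR adjusted p = 0.00243). It lost the call without KO 1 (0.0882). Col18a1, a basement membrane collagen, stood at 13.9 and 11.8 against 5.89 and 4.83 CPM (log2 -1.21, edgeR adjusted p = 0.0293). It was enriched in epithelial barcodes, and it lost the call without any 1 library (edgeR adjusted p = 0.0878 to 0.153). These were the 2 genes that fell among 17 basement membrane genes, where none rose and the median was 0.02. In the fibrillar matrix list of 30 genes only Fbln1 fell, at 431 and 389 against 265 and 275 CPM (log2 -0.59, edgeR adjusted p = 0.0491, and 0.173 to 0.261 without any 1 library), and none rose in edgeR. DESeq2 called 5 of that list higher, Col14a1, Col5a2, Fbln5, Fmod and Lox, and 2 lower, Fbln1 and Col6a1. Most of that list leaned higher in KO, with 22 of 30 values positive, a median of 0.29 and 16 at an unadjusted p under 0.05. Both KO libraries stood above both control libraries for 18 of them (60%), against 21.2% of all tested genes, and below for 7. Col1a1, the main collagen of dermis, was at 0.42 (edgeR adjusted p = 0.33).

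Gm10093 (ENSMUSG00000061062, chromosome 17, 78491582 to 78493025, plus strand) is annotated as a processed pseudogene, so its reads may be shared with a near-identical gene and its level is uncertain. It had 387 and 332 UMIs in WT and HET and 25 and 6 UMIs in KO 1 and KO 2, or 37.1 and 27.5 against 2.16 and 1.45 CPM. The log2 fold change was -4.02 ± 0.23 (edgeR adjusted p = 8.54e-05). Epithelial barcodes showed the same order, with 42.4 and 41.4 CPM in control and 5.74 and 6.04 CPM in KO. So did the other barcodes, many of them fibroblast-like, with 36.2 and 25.7 against 3.22 and 3.92 CPM.

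**Figure D3:**
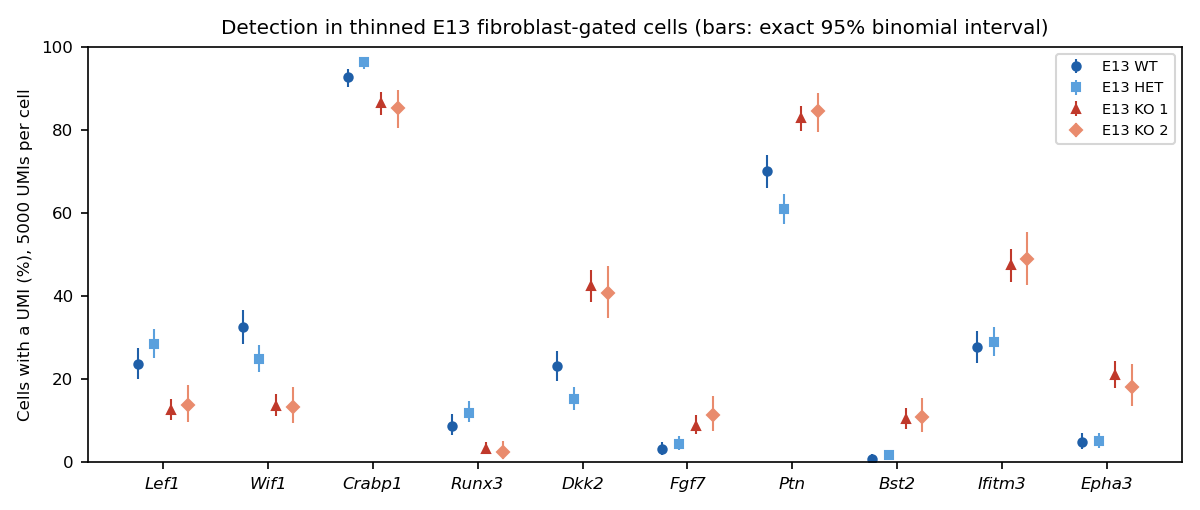
Percent of E13 fibroblast-gated cells with at least 1 UMI after each cell was thinned to 5000 UMIs, by gene and library (bars are exact 95% binomial intervals, which cover counting error only). Lef1 was found in 23.7 and 28.5% of control cells and 12.6 and 13.8% of KO cells, and Dkk2, which did not pass in edgeR, in 23.1 and 15.3% against 42.5 and 40.9%.

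The levels above are sums over cells, so the share of cells with a UMI was read after thinning each cell to 5000 UMIs, and no E13 gated cell was shallower than that. Lef1 had a UMI in 23.7 and 28.5% of WT and HET cells and in 12.6 and 13.8% of KO 1 and KO 2 cells. Runx3 had one in 8.87 and 12.01% against 3.26 and 2.43%, and Crabp1 in 92.8 and 96.4% against 86.5 and 85.4%. Ptn had one in 70.1 and 61.1% of control cells and in 82.9 and 84.6% of KO cells. Bst2 had one in 0.924 and 1.74% against 10.4 and 10.9%. For each of these genes the KO libraries lay on the same side of both control libraries, as in the sums. The genes had been called on those sums and the shares use the same UMIs, so this order is no separate support. Keratins, markers of epithelia, were read in the same way. Krt14, a keratin of basal keratinocytes, had a UMI in 33.3 and 25.6% of gated control cells and in 0 and 0.405% of gated KO cells. Krt18, a keratin of simple epithelia, had one in 0.924 and 0.145% of gated control cells and in 12.7 and 28.3% of gated KO cells. In KO epithelial barcodes Krt18 stood at 1110 and 743 CPM and Bst2 at 38.1 and 35.1 CPM. The Krt18 share is therefore no background for that of Bst2. The part of free RNA or mixed barcodes in the Bst2 share was not tested, so that share is not read as one of expressing cells. Whether the thinned shares reflect fewer cells of a state or less RNA per cell cannot be told apart from them.

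**Figure D4:**
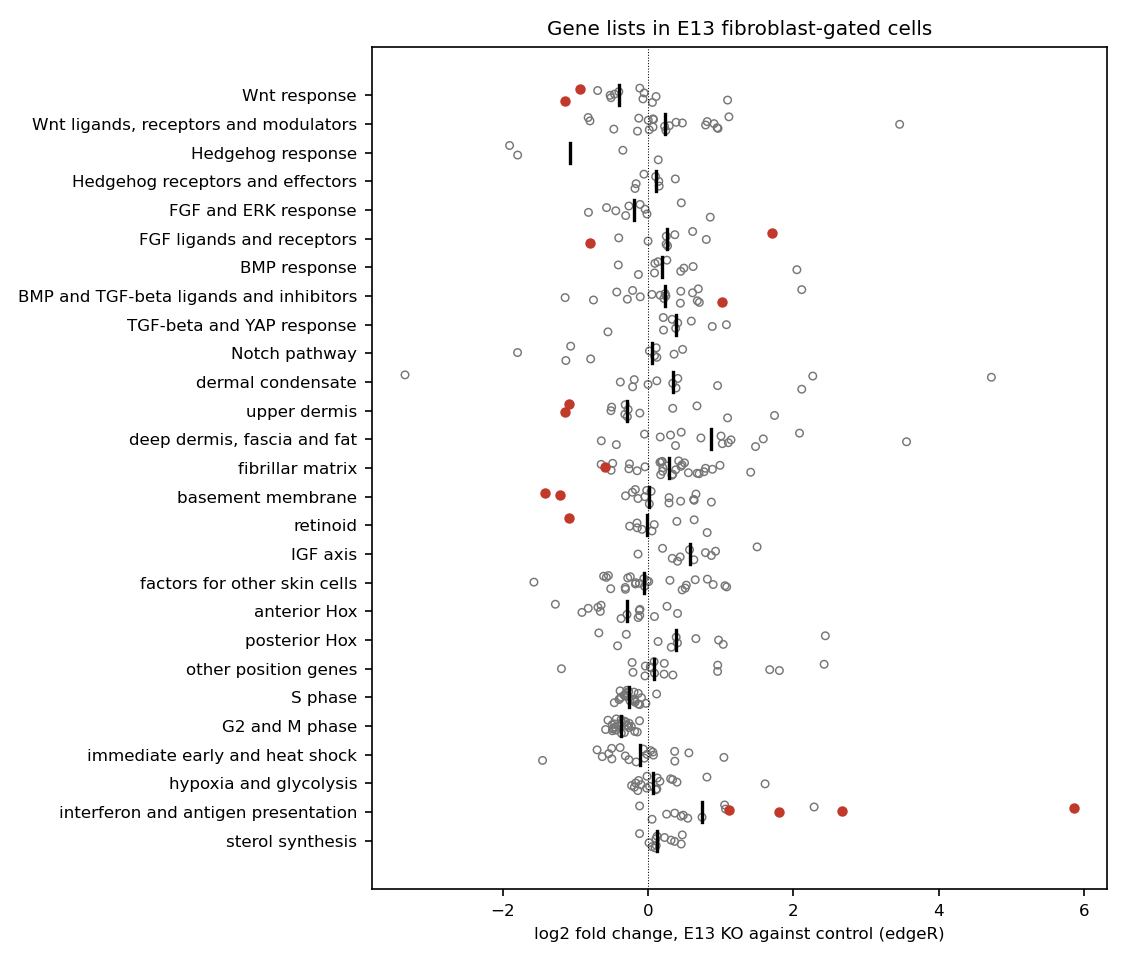
Log2 fold change of E13 KO against control (edgeR) for the tested genes of 27 lists, 1 point per gene, with filled points for adjusted p under 0.05 and a vertical bar at the list's median. The interferon and antigen presentation list holds 4 filled points, all to the right, and the 24 G2 and M phase genes all lie left of 0 with none filled.

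Proliferation genes lay slightly lower in KO without passing. None of the 24 S phase genes and none of the 24 G2 and M phase genes passed in edgeR or in DESeq2, and 5 and 13 had an unadjusted p under 0.05. In the S phase list 23 of 24 values were negative with a median of -0.26, and in the G2 and M phase list all 24 were negative with a median of -0.37. Top2a, the topoisomerase of dividing cells, stood at 222 and 241 CPM in control and 181 and 157 CPM in KO (log2 -0.44, edgeR adjusted p = 0.165). Genes of a cell-cycle list rise and fall together across cells, so their values are not independent. Of the 11 genes of the insulin-like growth factor axis 10 were positive (median 0.57) and none passed in edgeR or DESeq2, with 7 at an unadjusted p under 0.05. None of the 15 anterior and 11 posterior Hox genes, which record position along the body, passed in either tool (1 and 3 at an unadjusted p under 0.05). Their medians were -0.29 and 0.39.

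RNA of other cell types moved with the arms inside the gate. Krt14 stood at 128 and 72.1 CPM in gated control cells and at 0.26 and 0.483 CPM in gated KO cells (log2 -8.21 ± 0.68, edgeR adjusted p = 0.000678). In epithelial barcodes it stood at 1765 and 1031 against 1.23 and 3.84 CPM. Of the 11 keratinocyte markers 4 fell in gated cells, namely Krt14, Krt5, Krt15 and Perp, and their summed level was 228 to 387 CPM in control and 52.2 to 68.1 CPM in KO. Of the 8 genes listed here as simple epithelium markers, a list chosen with earlier results known, 4 rose, namely Krt18, Krt8, Bfsp2 and Cldn3. The list summed to 9.0 to 15.8 CPM in control and 87.1 to 161 CPM in KO. Krt18 stood at 1.15 and 0.827 against 27.7 and 52.9 CPM in gated cells and at 12.2 and 4.48 against 1110 and 743 CPM in epithelial barcodes. Krt5, Krt15, Perp and Cldn3 lost the call without KO 1 (edgeR adjusted p = 0.204, 0.249, 0.281 and 0.155) or KO 2 (0.0841, 0.118, 0.145 and 0.149), Krt15, Perp and Cldn3 also without WT (0.109, 0.137 and 0.164), and Perp and Cldn3 also without HET (0.128 and 0.224). No epithelial marker of these lists was at 0 in any E13 library. For Krt14 and Krt18 the order of the arms in gated cells was that in epithelial barcodes, and the part of free RNA or mixed barcodes in the other results was not tested.

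Haemoglobin RNA was lower in KO. Haemoglobin genes have near-identical copies, so the split of reads among them is uncertain. The 8 erythroid markers summed to 38840 and 35807 CPM in WT and HET and to 10781 and 7437 CPM in KO 1 and KO 2. Of these 8, Hba-a1, Hbb-bt, Hba-x and Hbb-y fell, and all 8 were lower in both KO libraries than in both control libraries, as were 24.2% of all tested genes. Hba-a1 stood at 12063 and 10293 CPM in control and at 3100 and 2227 CPM in KO (log2 -2.06, edgeR adjusted p = 0.0262, and 0.0832 to 0.153 without any 1 library). Hbb-bt and Hba-x lost the call without any 1 library as well (edgeR adjusted p = 0.123 to 0.245 and 0.0818 to 0.173), and Hbb-y without HET (0.149), KO 1 (0.171) or KO 2 (0.163). Car2, a carbonic anhydrase gene also abundant in red cells, stood at 31.3 and 24.5 against 6.15 and 9.66 CPM (log2 -1.90, edgeR adjusted p = 0.0472, and 0.0971 to 0.271 without any 1 library). Stmn2, a tubulin-binding protein of growing axons listed here as a neuron marker, rose. It stood at 48.1 and 58.8 CPM in control and 141 and 395 CPM in KO (log2 2.32, edgeR adjusted p = 0.0491). In KO 1 and KO 2 Stmn2 was lower in epithelial barcodes (32.8 and 83.5 CPM) and other barcodes (67.9 and 285 CPM) than in gated cells. In WT it was higher in other barcodes, at 83.4 CPM. Before thinning it had a UMI in 14.4, 17.5, 21.1 and 55.1% of gated WT, HET, KO 1 and KO 2 cells. Whether neurons supplied the Stmn2 RNA was not tested. Without WT, HET or KO 2 its adjusted p was 0.249, 0.222 and 0.181. The neuron list summed to 82.1 and 91.9 CPM in control and 193 and 431 CPM in KO, most of it Stmn2. Its next gene, the tubulin gene Tubb3, stood at 27.9 and 20.9 against 37.6 and 25.6 CPM, so the arms overlapped, and Elavl3 was at 0 in HET, KO 1 and KO 2. Sox9, a cartilage regulator, had 1.53 and 1.57 CPM in control and 6.41 and 3.62 CPM in KO (log2 1.79, edgeR adjusted p = 0.0491, and 0.0572 to 0.315 without any 1 library). The cartilage list summed to 49.99 and 26.7 CPM against 70.5 and 53.8 CPM, and Acan was at 0 in WT, HET and KO 2. The endothelial list summed to 36.6 and 27.5 CPM in control and to 42.0 and 50.5 CPM in KO, with Cdh5 at 0 by the gate, and none of its 8 tested genes passed in edgeR or DESeq2 (5 at an unadjusted p under 0.05). The part of these cell types in the other results was not tested. Leaving out the 36 cells with 3 or more cartilage genes gave 63 higher and 76 lower genes.

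The genes called at E13 were then read in the E15 libraries. Their E13 fold changes come from the E13 libraries, while the spread behind the E13 tests was estimated over all 8 libraries. At E15 677 genes were higher and 394 lower, which is 5.1% and 2.97% of tested genes. Of the 56 genes higher at E13, 49 had the same sign at E15, 28 were called higher there and 2 were called lower. Of the 68 genes lower at E13, 49 had the same sign, 23 were called lower and 6 were called higher. Without gate genes, genes enriched in other cells and markers of other cell types, 40 of 45 higher genes kept their sign with 25 called, and 36 of 50 lower genes kept theirs with 12 called. Gated cells of the 4 E13 libraries had Xist, the RNA of the inactive X chromosome of females, at 1036 to 1337 CPM, against 0.308 to 0.426 CPM at E15. Age and sex therefore cannot be told apart between the ages, while within each age both arms had Xist at like levels.

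Genes called the same way at both ages included Ifi27, with a log2 fold change of 2.19 ± 0.12 at E15 (edgeR adjusted p = 4.71e-05), and Bst2, with 1.49 ± 0.19 (0.00224). Fgf7 stood at 5.86 and 3.87 CPM in E15 WT and HET and at 20.3 and 21.7 CPM in E15 KO 1 and KO 2 (log2 2.19 ± 0.23, edgeR adjusted p = 0.00115). Ptn was at 256 and 122 against 678 and 785 CPM (edgeR adjusted p = 0.00373), Runx3 at -1.23 (0.0068), Wif1 at -1.22 (0.00926) and Col7a1 at -0.88 (0.00246). Crabp1 did not pass at E15 (log2 -0.37, edgeR adjusted p = 0.266), and the difference between its effects at the 2 ages did not pass either (0.72, adjusted p = 0.206). Calb1 had 3, 2, 3 and 1 UMIs in the E15 libraries, so no difference was detectable there. The KO effect itself differed between the ages for 135 genes in the positive and 75 in the negative direction (1.02% and 0.565% of tested genes). Among the 124 genes called at E13 these included Lef1, whose E15 values were 68.5 and 65.2 CPM in control and 13.9 and 12.8 CPM in KO, a log2 fold change of -2.30 ± 0.11 (edgeR adjusted p = 1.83e-05).

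**Figure D5:**
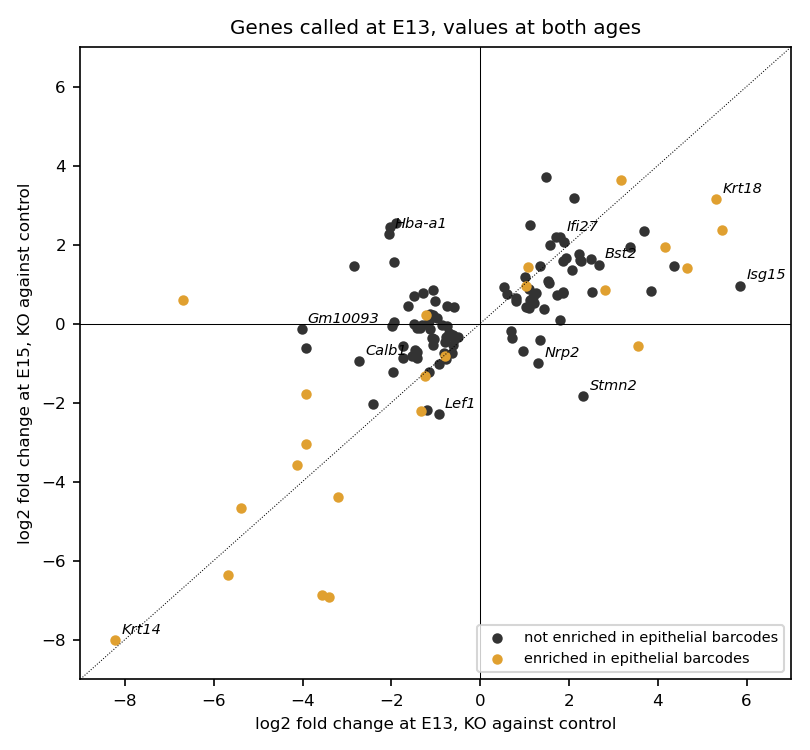
Log2 fold change (KO against control, edgeR) of the 124 genes called at E13, with E13 on the horizontal and E15 on the vertical axis. Points enriched in epithelial barcodes are orange, and the dotted line marks equal values. Most points lie below and left of both zero lines or above and right of them, while Hba-a1, Nrp2 and Stmn2 have opposite signs at the 2 ages and Gm10093 lies near 0 at E15.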

How the data were processed

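Back skin of 8 mouse embryo preparations was profiled with a 10x 3' kit. The authors deposited UMI counts per gene and barcode, whole numbers that are not normalised. Per the submitters' processing notes the tools were Cell Ranger and Seurat on mm10. Their versions and barcode filters are not given in the sources used here. UMIs of gated barcodes were summed per library (4141759 to 12087627 UMIs at E13) and fitted with edgeR 4.0.16 in R 4.3.3. The fit took all 8 libraries, 1 mean per age and arm (4 residual degrees of freedom), filterByExpr at a minimum count of 10 and TMM scaling. Its quasi-likelihood test was adjusted by Benjamini-Hochberg at 0.05 over all 13280 genes. The SE of a log2 fold change is its absolute value over the square root of F. CPM values are UMIs per 1000000 gated UMIs. Coordinates come from GENCODE M21 on GRCm38 (13256 of 13280 IDs matched). No doublet caller was run. The pipeline was tested on simulated data. Members, gene lists and the naming rule were chosen with earlier results of these data known. The rule named the 12 highest and the 12 lowest fold changes among called, separated genes that reached 20 CPM in the higher arm and were neither markers of nor enriched in other cells. It added up to 4 genes per list by p, 4 enriched genes per direction, the gate genes and Trp63, and 6 genes each leading both ages and their difference. Genes outside the rule were chosen after their values were seen.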

Additional observations from a re-analysis of the deposited data

Results flagged for a closer look

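For 26 of the 124 genes called at E13 the KO effect differed between the ages by a test of the difference itself (the E15 effect minus the E13 effect, log2, edgeR adjusted p under 0.05). The 16 of them that the naming rule or the text names are given as values, and the other 10, among them Erg and Sntb2, are not. Haemoglobin and other red cell genes had differences of 4.32 for Hba-a1, 4.47 for Hbb-bt, 4.3 for Hba-x, 4.44 for Car2 and 3.5 for Slc4a1, the anion exchanger of red cells. The erythroid sum in gated cells was 35807 to 38840 CPM in E13 control, 7437 to 10781 in E13 KO, 4600 to 11604 in E15 control and 31684 to 56284 in E15 KO.

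Gm10093 differed by 3.88, and its level was 23.7 to 28.5 CPM in every E15 library. Isg15 differed by -4.9. Lef1 differed by -1.36, being lower in KO at both ages and by more at E15, and Epha3 by -1.11, being higher in KO at both ages. Nrp2 differed by -2.3 and Stmn2 by -4.16, and both were higher in KO at E13 and lower at E15. Prkcb, a protein kinase C gene, differed by 2.19, the circadian factor Hlf by 1.97, Col18a1 by 1.43, Fbln1 by 1 and Gnai1 by 0.97. Because the E15 libraries also differ from the E13 libraries in sex, age and sex cannot be told apart in these differences.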

How the results depend on the processing

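Against 56 higher and 68 lower genes at E13, the 4 E13 libraries fitted alone gave 113 and 115, genes without a filter on low counts 431 and 401, and cells without the top UMI counts 105 and 105. DESeq2 gave 90 higher genes (82 lower). The looser quality filter gave 44 lower, leaving out the 87.8 to 90.3% of cells with Osr1 or Agtr2 38 lower, and up to 2 UMIs of excluded genes 19 and 25. Leaving out 1 library gave 13 to 27 higher and 5 to 23 lower genes, and 21 to 89 for the difference between ages (210 in the fit reported). The lone library of an arm is then assumed to vary like the other groups. Without a filter the E15 count of 1071 was 2071 and the difference count 1072. Thinning gave 573 and 127, and cells without Osr1 or Agtr2 gave 288 at E15. Of the 124 genes, 8 passed in all 15 alternatives and 50 in at least 10. All 124 were separated between the arms and the alternatives reuse the same libraries, so signs were largely bound to hold. Every tested one of the 124 kept its sign in 14 alternatives. In cells without Osr1 or Agtr2, 103 of 105 did, and Adamts5 (-1.18) and Ifitm3 (-0.76) reversed. No paired analysis was possible because the control libraries carry no replicate number.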
